A study of Mus musculus with 25 samples.

Results

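The data were RNA-seq read counts from paired tumours of 4 mice, and the question was which genes differed between liver and peritoneal tumours in one way in the tumour cells and in another way in the stroma around them. The tumour cells were BMEL cells, bipotential hepatocyte precursors of a clonally derived line from embryonic liver (C57B/6_C3H in the labels, C57BL/6xC3H in the study's methods), transformed with H-Ras G12V and carrying a fluorescent reporter. They had been injected into the liver of athymic nude mice (Crl:NU(NCr)-Foxn1nu), which lack a thymus and mature T cells but keep natural killer and myeloid cells, and gave rise to a tumour in the liver and another in the peritoneal cavity of the same animal. Each tumour was dissociated and sorted by GFP, the positive fraction giving tumour cells and the negative fraction giving host stroma, so the 16 libraries formed 4 groups of 4: tumour cells from liver, tumour cells from peritoneum, stroma from liver and stroma from peritoneum. The labels give no age and do not say whether cells of high or low Ras expression had been injected. These 16 were the libraries from sorted tumours among the 25 of the series, and the cultured cell libraries were not part of the comparison.

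For each gene the site difference was the log2 fold change of liver over peritoneum, estimated separately in tumour cells and in stroma with mouse as a block. The quantity tested was the site difference in tumour cells minus the site difference in stroma. A positive value is written here as higher in tumour cells and a negative value as lower in tumour cells. A gene was called when the Benjamini-Hochberg adjusted p of edgeR's quasi-likelihood test was under 0.05 and this log2 difference exceeded 1 in size. A called gene was termed opposite when the site difference of each compartment exceeded 1 in size at an unadjusted p under 0.05, with one compartment on the liver side and the other on the peritoneal side.

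A tumour in the liver grows among hepatocytes, sinusoidal endothelium, stellate cells and Kupffer cells, whereas a peritoneal tumour grows beside mesothelium, adipose tissue and peritoneal macrophages. Fibroblasts keep the homeobox code of the body region they come from, and they deposit and remodel the extracellular matrix. Interferon-stimulated genes are switched on in most cell types by interferons acting through the Jak-Stat pathway and encode antiviral and antigen-processing proteins.

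Total counts ranged from 23129017 to 51241336 per library (median 31406396.5), and 3 counts corresponded to between 0.0573 and 0.132 CPM, the counts of a gene scaled by library size, which is the level scale used throughout. Epithelial, fibroblast and leukocyte markers lay on their own side of the sort, but neither fraction was free of the other. Stellate and mesothelial marker sums were instead higher in tumour cells at both sites. In liver, stellate markers summed to 988 to 1480 CPM in tumour cells and 442 to 660 CPM in stroma. Mesothelial markers summed to 3490 to 4060 CPM and 539 to 663 CPM. Krt19 belongs to both the mesothelial and the epithelial list, so the sums of these lists are not independent. The summed level of the tumour cell epithelial markers was 8630 to 10200 CPM in tumour cells from liver and 10000 to 11400 CPM in those from peritoneum, against 1870 to 2520 CPM in liver stroma and 1140 to 1610 CPM in peritoneal stroma. Within a mouse, stroma held 20.9% to 25.1% of the epithelial sum of its tumour cells in liver, and 11.4% to 15.4% in peritoneum. The fibroblast marker sum was 4040 to 8120 CPM in liver stroma and 53500 to 79100 CPM in peritoneal stroma. It was 41.0 to 62.6 CPM in tumour cells from liver and 222 to 342 CPM in tumour cells from the peritoneum of mice 2 to 4, but 1560 CPM in those of mouse 1, which stood apart. Leukocyte markers summed to 6140 to 7430 CPM and 4000 to 4890 CPM in the stroma of the 2 sites and to 37.3 to 153 CPM in tumour cells. The hepatocyte sum was highest in liver stroma (57.0 to 369 CPM) and at most 63.1 CPM elsewhere. In bulk fractions such as these, fewer cells of a type and less RNA per cell cannot be told apart.

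**Figure D1:**
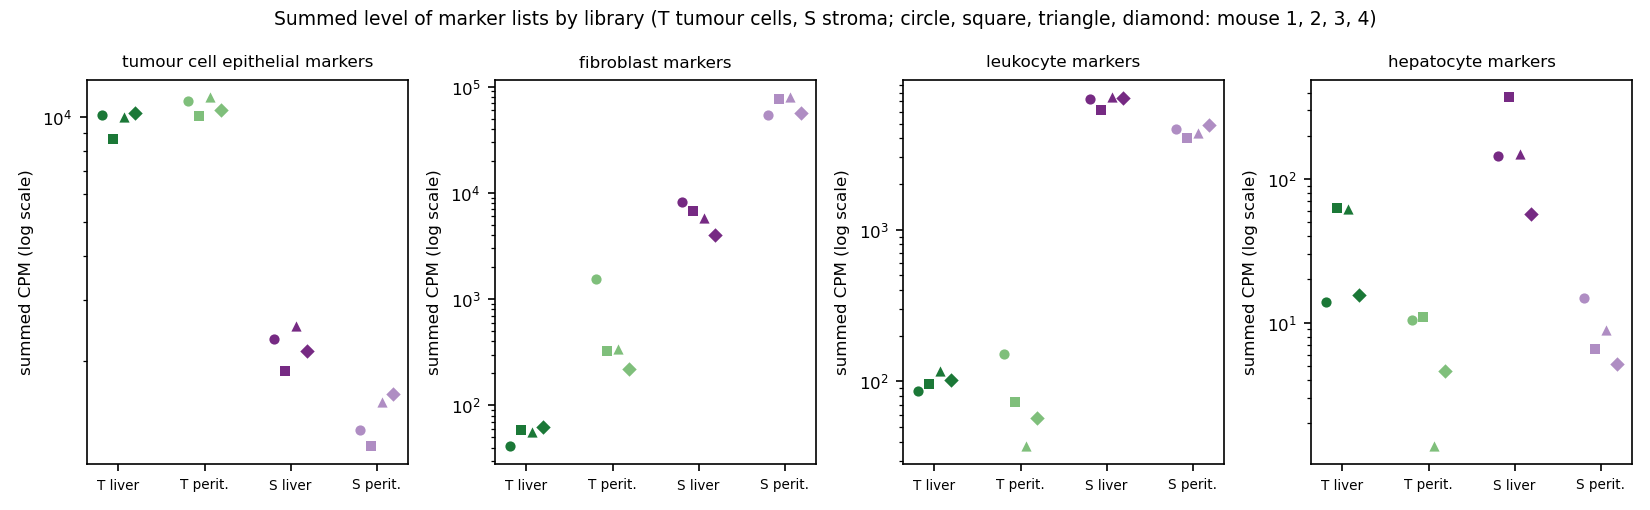
Summed CPM (log scale) of 4 marker lists in each of the 16 libraries, grouped by compartment and site, with 1 symbol per mouse. Fibroblast markers were higher in peritoneal than in liver stroma in every mouse, and the tumour cell library of the peritoneum of mouse 1 lay above the other 3 of its group at 1560 CPM.

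Among 24984 genes, 15331 were tested, and 1022 of them (6.67%) had a site difference that depended on the compartment. In 622 (4.06%) the difference was higher in tumour cells, and in 400 (2.61%) it was lower. With no minimum log2 difference the balance turned, to 1150 higher and 1495 lower, and at an unadjusted p it was 833 higher and 782 lower. For most called genes the dependence came with a site difference in the stroma: 601 passed the thresholds for a site difference in stroma alone, 106 in tumour cells alone, 28 in both with the same sign and 232 in neither, and 55 (0.359% of genes tested) were opposite. The site contrast itself was past its thresholds in 957 genes (6.24%) in tumour cells and in 2257 genes (14.7%) in stroma. Over all genes tested the median log2 difference of site differences was -0.116, and 38.4% of genes were above 0. Leaving out mouse 2 left 588 called genes, 174 of them lower in tumour cells, leaving out the peritoneal stroma of mouse 2 left 219 lower, and leaving out the peritoneal tumour cells of mouse 1 left 1121, of which 846 were higher in tumour cells.

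**Figure D2:**
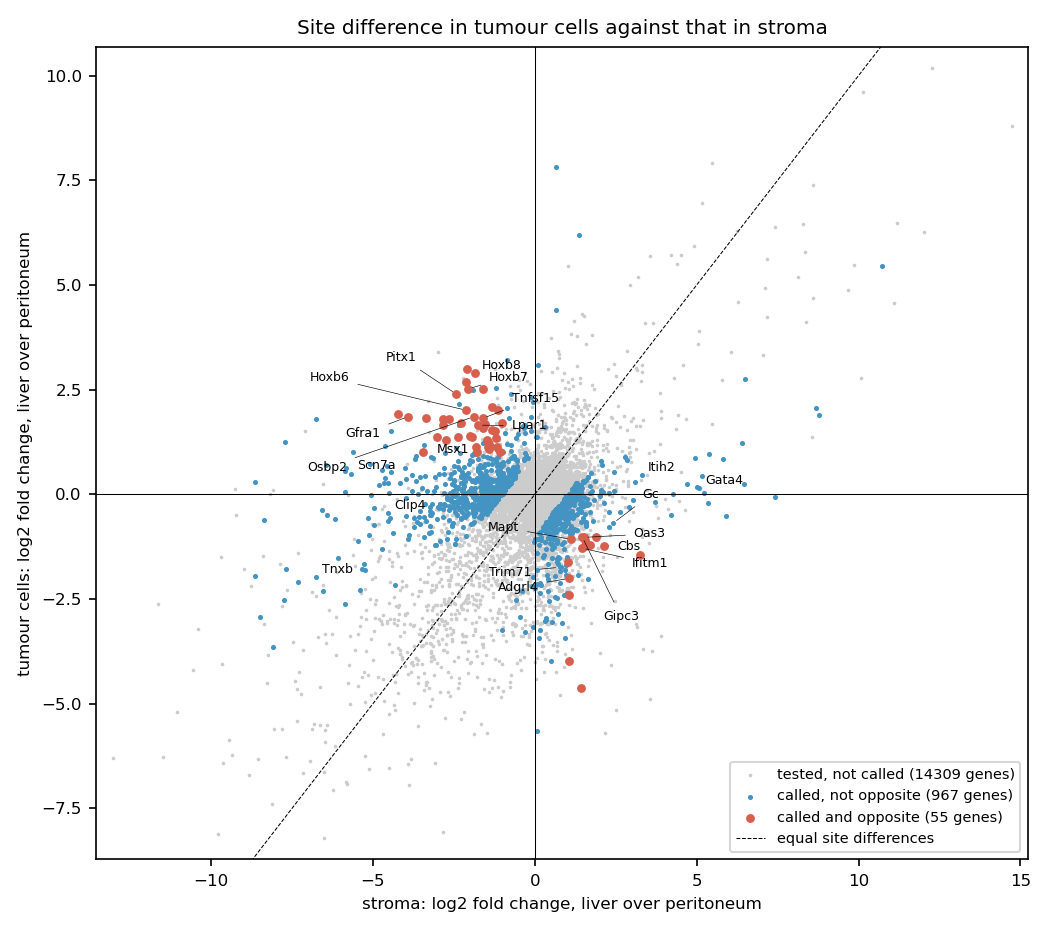
Log2 fold change of liver over peritoneum in tumour cells (vertical) against the same in stroma (horizontal) for the 15331 genes tested, with the 22 named genes labelled. The 55 opposite genes fill the upper left (40 genes) and lower right (15 genes), and the dashed line marks equal site differences.

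The 55 opposite genes were of 2 kinds. In 40 the tumour cells had the higher level in the liver while the stroma had the higher level in the peritoneum, and in 15 the pattern was the reverse. Among the 40, the log2 difference ranged from 2.09 to 6.13 (median 3.42, adjusted p from 8.35e-06 to 0.0343) and had this sign in all 4 mice for 39, the exception being Zfp469. Levels were low: 21 of the 40 reached a mean of 1 CPM in tumour cells at the liver site, and only 4 had a higher mean in tumour cells than in stroma. Among the 15, the log2 difference lay between -6.06 and -2.2 (median -2.91, adjusted p from 0.00142 to 0.0408), with this sign in all 4 mice for each of them. Levels were low here too: 7 of the 15 reached a mean of 1 CPM in tumour cells at the higher site. The sites were separate in both compartments for 25 of the 40 and 2 of the 15. Such separation was not counted over all genes tested, so no trait of either kind can be read from these counts. Both kinds were chosen by the values of these mice, so agreement in sign and separation of sites follow in part from the choice. When each site contrast was also required to pass an adjusted p under 0.05, 17 of the 55 remained, 15 of the first kind and 2 of the second. The 2 were Arhgap27os3 and Oas1g, with tumour cell means under 1 CPM at both sites. Of the genes described below, Pitx1, Osbp2, Wnt11 and Igfbp5 of the first kind were not among the 17. Nor were Oas3, Cbs, Mapt, Gipc3, Ifitm1 and Adgrl4 of the second. The balance of the 2 kinds rested on single libraries: without the liver stroma of mouse 1, 42 of 78 opposite genes were of the first kind, and without the peritoneal tumour cells of mouse 1, 70 of 76. The count was 33 without mouse 4 and 30 when genes had to reach 2 CPM in 4 libraries.

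By the size of the smaller of the 2 site differences, 4 homeobox genes were among the 8 named of the first kind. Hoxb6, Hoxb7 and Hoxb8, neighbouring genes for homeodomain factors that pattern the body axis, were higher in the liver in tumour cells and higher in the peritoneum in stroma, and so was Pitx1, a homeodomain factor of hindlimb identity. Their spans on chromosome 11 (build NCBIM37, mm9, plus strand) are chr11:96153790-96162883 for Hoxb6, chr11:96145571-96151650 for Hoxb7 and chr11:96143219-96146639 for Hoxb8. The spans of Hoxb7 and Hoxb8 overlap, so reads of these neighbours could have been shared.

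Hoxb7 (Entrez 15415) measured 1.63, 0.746, 1.62 and 1.68 CPM in tumour cells from the liver of mice 1 to 4, and 0.34, 0.565, 0.115 and 0.0 CPM in those from the peritoneum. In stroma it measured 1.1, 0.973, 1.4 and 1.1 CPM in liver and 4.47, 5.82, 4.96 and 4.04 CPM in peritoneum. The sites did not overlap in either compartment and stood in opposite order. The site difference was 2.52 in tumour cells (adjusted p = 0.0315) and -2.06 in stroma (adjusted p = 0.00763), a log2 difference of 4.58 ± 0.77 (SE, n = 4 mice, adjusted p = 0.00196, edgeR).

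Hoxb6 (Entrez 15414) repeated this order, with 2.03, 0.746, 1.59 and 2.21 CPM in tumour cells from liver and 0.587, 0.538, 0.439 and 0.11 CPM in those from peritoneum. Stromal Hoxb6 was 0.778, 1.11, 1.37 and 0.532 CPM in liver and 4.18, 5.07, 3.58 and 3.45 CPM in peritoneum. Again neither pair of groups overlapped, and tumour cells in the liver lay in the range of liver stroma or above it. The log2 difference was 4.13 ± 0.63 (adjusted p = 0.00109).

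Hoxb8 (Entrez 15416) varied more among the liver tumours, with 3.68, 1.13, 2.74 and 7.15 CPM in mice 1 to 4, against 0.649, 1.02, 0.134 and 0.146 CPM in peritoneal tumour cells. Its stromal values were 1.33, 1.78, 1.27 and 2.09 CPM in liver and 3.87, 6.88, 6.57 and 4.96 CPM in peritoneum. The groups did not overlap, although the 2 sites of mouse 2 were close in tumour cells. The site differences of 2.90 in tumour cells and -1.83 in stroma (adjusted p = 0.0277 and 0.0266) gave a log2 difference of 4.74 ± 0.87 (adjusted p = 0.00323).

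Pitx1 (Entrez 18740, chr13:55926415-55937553, minus strand, mm9) measured 6.15, 3.92, 1.89 and 9.42 CPM in tumour cells from liver and 0.988, 0.861, 0.0 and 2.7 CPM in those from peritoneum. The stroma held 1.31, 0.973, 1.6 and 1.33 CPM in liver and 6.29, 7.76, 6.96 and 6.68 CPM in peritoneum. Every mouse had the higher tumour cell level in its liver, but the groups overlapped, since mouse 4 had more in peritoneum than mouse 3 in liver. The log2 difference was 4.83 ± 0.96 (adjusted p = 0.00508), and the call was lost without mouse 2 (adjusted p = 0.0625).

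Over the 26 Hox genes tested, a list added after values were seen, 8 were called, all higher in tumour cells, against 4.06% of all genes called in that direction. Besides Hoxb6 to Hoxb8 these were Hoxa5, Hoxa6, Hoxa7, Hoxa9 and Hoxb3. The median site difference of the list was -0.0573 in tumour cells and -2.09 in stroma, and 24 of 26 had a log2 difference above 0. Hoxb3 showed the pattern at lower strength, with site differences of 1.83 in tumour cells and -0.81 in stroma (log2 difference 2.64 ± 0.53, adjusted p = 0.0052). The count was 4 without mouse 2, 5 without mouse 3 and 14 with limma-voom. Among genes with a tumour cell mean of at least 0.5 of the stromal mean it was 4 of 9 tested. The fibroblast marker sum in stroma moved in the same direction as stromal Hox levels, and its part in these differences was not tested.

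Among the other opposite genes, Lpar1 (Entrez 14745, chr4:58448127-58566770, minus strand, mm9), a receptor for lysophosphatidic acid, had the smallest adjusted p of the 55. It measured 18.1, 15.6, 15 and 19.6 CPM in tumour cells from liver and 5.99, 5.41, 4.34 and 5.99 CPM in those from peritoneum. In stroma the values were 17.4, 10.2, 16.1 and 16.3 CPM in liver and 49.8, 55.1, 51.9 and 42.2 CPM in peritoneum. Tumour cells and stroma thus held similar Lpar1 levels in the liver, and lay far apart in the peritoneum. The site difference was 1.65 ± 0.16 in tumour cells (adjusted p = 0.000698) and -1.75 ± 0.16 in stroma (adjusted p = 9.41e-06), and the log2 difference was 3.4 ± 0.23 (adjusted p = 8.35e-06). In cultured cells with high Ras the authors' counts gave a mean of 0.322 CPM. That value was scaled over all 25 libraries, so its scale is not that of the others here. Of the 40 opposite genes of this kind, 9 reached a mean of 1 CPM in those cultured cells.

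Gfra1 (Entrez 14585, chr19:58310094-58530399, minus strand, mm9), which binds GDNF and signals with Ret, had the widest contrast of the named opposite genes. Tumour cells held 3.05, 3.9, 8.63 and 7.91 CPM in liver and 2.87, 0.969, 1.22 and 1.21 CPM in peritoneum, with the 2 sites of mouse 1 nearly level. Stroma held 1.03, 1.88, 1.14 and 2.05 CPM in liver and 20.3, 24, 23.8 and 23 CPM in peritoneum. Sites did not overlap in either compartment, and the log2 difference was 5.77 ± 0.59 (adjusted p = 9.41e-05) from site differences of 1.86 and -3.92.

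Adgra2 (Entrez 78560), an adhesion G protein-coupled receptor that acts in Wnt7 signalling, was more abundant and was chosen after its values were seen. Its tumour cell values were 54.2, 43.5, 27.3 and 56.3 CPM in liver and 14.9, 26.5, 14.3 and 15.3 CPM in peritoneum. Its stromal values were 55.1, 69.2, 59.9 and 51.7 CPM in liver and 162, 281, 293 and 217 CPM in peritoneum. The log2 difference was 3.41 ± 0.35 (adjusted p = 9.41e-05), without overlap of sites in either compartment.

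Of the other named genes of this kind, Tnfsf15, a ligand of the TNF family, had tumour cell values of 0.98, 0.884, 1.74 and 1.14 CPM in liver and 0.618, 0.457, 0.191 and 0.11 CPM in peritoneum. Its stromal values were 0.753, 1.48, 1.56 and 0.835 CPM in liver and 2.39, 5.29, 3.13 and 3.16 CPM in peritoneum. The sites were separate in both compartments, with a log2 difference of 3.42 ± 0.62 (adjusted p = 0.0031). Osbp2, an oxysterol-binding protein, reached 0.557, 0.967, 3.48 and 1.08 CPM in tumour cells from liver and 0.0926, 0.431, 1.15 and 0.073 CPM in those from peritoneum, with overlap between mice. Its stromal levels were 0.653, 1.14, 0.651 and 0.494 CPM in liver and 2.46, 3.04, 3.64 and 2.02 CPM in peritoneum, and the log2 difference was 3.75 ± 0.73 (adjusted p = 0.00448). Of the remaining opposite genes on this side, Kctd15 (log2 difference 4.10 ± 0.67, adjusted p = 0.00153), the ligand gene Wnt11 (2.72 ± 0.55, adjusted p = 0.00555) and Igfbp5, which binds insulin-like growth factors (3.18 ± 0.80, adjusted p = 0.0166), were named after their values were seen. Igfbp5 levels of the 2 sites overlapped in both compartments. The others were 4932438H23Rik, Adamtsl3, Arhgef26, Cyp46a1, Ddit4l, Dnah10, Dnm3, Ephb3, Fetub, Glis1, Gm1673, Hoxaas2, Htr1d, Irx2, Kcnh1, Msi1, Mylk2, Myo16, P4htm, Pcdhga1, Pi15, Prss12, Shox2, Sorcs2, Syde2, Tmem252, Wnk3 and Zfp469. Their site differences ran from 1 to 3 in tumour cells and from -4.22 to -1.03 in stroma.

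**Figure D3:**
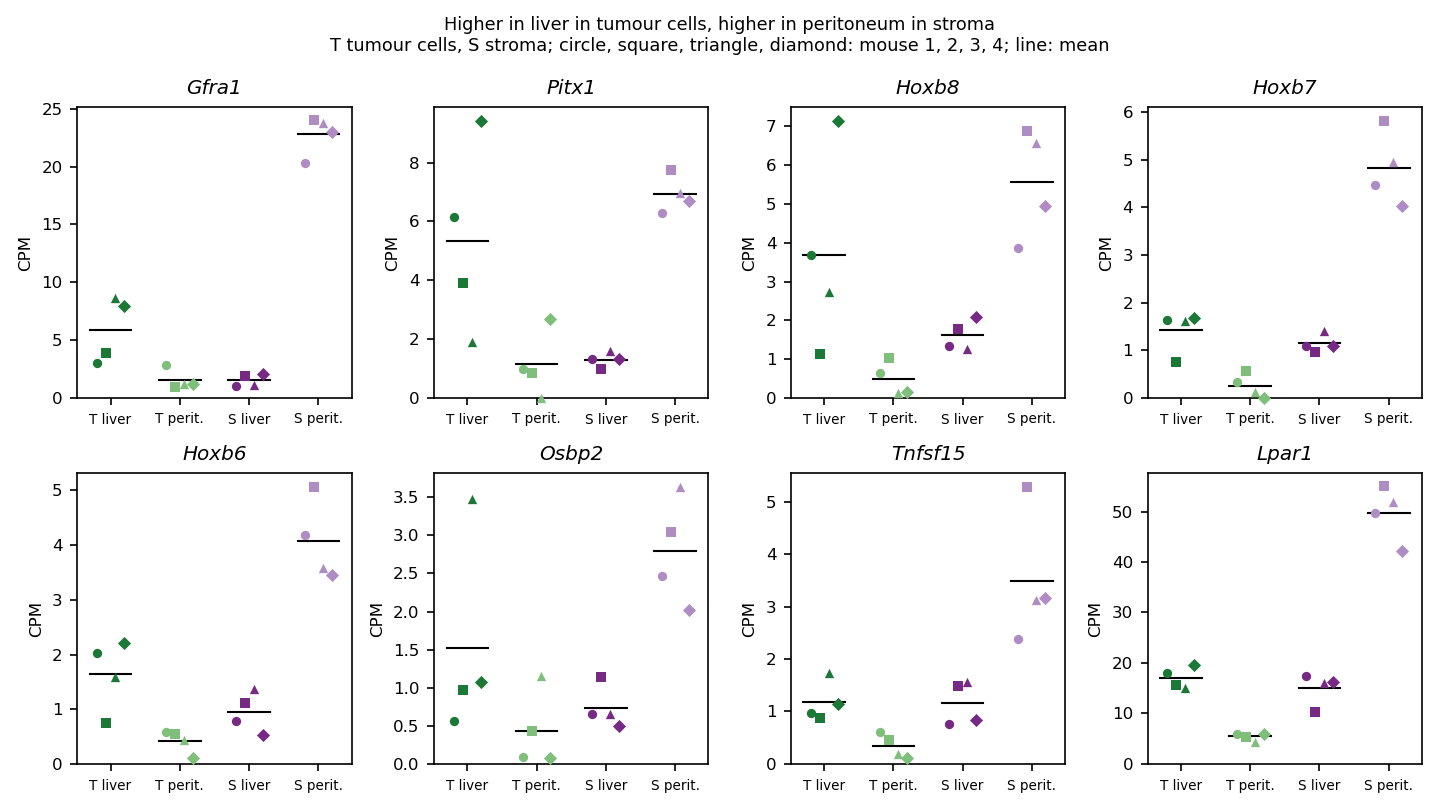
CPM of the 8 named genes higher in liver in tumour cells and higher in peritoneum in stroma, with 1 symbol per mouse and a line at the group mean. In each gene the tumour cell mean falls from liver to peritoneum while the stromal mean rises, for Gfra1 from 1.52 to 22.8 CPM in stroma.

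The 40 genes of this kind were chosen for sharing these directions, so their moving together follows from the choice. Promoters of 2 of them are shown as examples, as the 250 bases before the start site (RefSeq, build GRCm38.p6), GC box GGGCGG in capitals. They lie at chr11:96281655-96281904, plus strand, for Hoxb8 and at chr4:58553492-58553741, minus strand, for Lpar1, which has 3 listed windows.
Hoxb8: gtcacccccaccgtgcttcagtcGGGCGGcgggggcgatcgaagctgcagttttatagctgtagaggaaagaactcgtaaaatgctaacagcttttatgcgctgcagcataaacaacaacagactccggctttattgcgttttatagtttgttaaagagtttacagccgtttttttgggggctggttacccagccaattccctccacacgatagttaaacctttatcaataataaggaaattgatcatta
Lpar1: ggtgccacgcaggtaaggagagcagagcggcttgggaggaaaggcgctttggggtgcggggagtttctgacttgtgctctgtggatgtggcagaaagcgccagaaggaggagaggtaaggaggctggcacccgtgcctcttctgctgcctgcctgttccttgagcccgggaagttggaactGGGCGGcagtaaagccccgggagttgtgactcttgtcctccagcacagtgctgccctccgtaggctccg
A GC box, searched on both strands, was in 17 of the 29 genes with a listed promoter among the 40 (58.6%), against 35.3% of 26994 genes with a promoter. The 26994 include genes too low to be tested, so the sets are unlike and no excess can be read from these shares. The CCAAT letters were in 12 of the 29 (41.4%, against 37.5% of genes with a promoter) and TATAAA in 5 (17.2%, against 14.3%). The AP-1 letters TGANTCA were in 0 of the 29, against 7.82%. These matches describe the windows only.

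The reverse kind, higher in the peritoneum in tumour cells and higher in the liver in stroma, had fewer members, and 6 of its 15 genes met the naming rule. Oas3 (Entrez 246727, chr5:121203107-121227670, minus strand, mm9), a 2'-5'-oligoadenylate synthetase of the antiviral response, was the one whose call held under each of the 28 alternatives run for it. In tumour cells it measured 1.38, 1.88, 1.18 and 1.27 CPM in liver and 4.66, 4.92, 1.11 and 1.97 CPM in peritoneum. In stroma it measured 34.4, 55.8, 28.8 and 40.5 CPM in liver and 22.5, 13.6, 9.05 and 12.2 CPM in peritoneum. The stromal sites were separate, whereas in tumour cells mouse 3 had nearly the same level at both sites and the groups overlapped. The site difference was -1.03 ± 0.31 in tumour cells (adjusted p = 0.0745) and 1.51 ± 0.27 in stroma (adjusted p = 0.000985), with a log2 difference of -2.54 ± 0.41 (adjusted p = 0.00142).

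Cbs, the first enzyme of transsulfuration, measured 3.32, 3.65, 6.1 and 3.54 CPM in tumour cells from liver and 4.2, 9.53, 11.1 and 14.6 CPM in those from peritoneum. Its stromal levels were 2.01, 6.34, 2.21 and 0.873 CPM in liver and 0.246, 0.749, 1.29 and 0.294 CPM in peritoneum. The direction was the same in all 4 mice but the sites overlapped in both compartments, and the log2 difference of -3.38 ± 0.74 (adjusted p = 0.00841) was no longer called without mouse 2 (adjusted p = 0.0613).

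Mapt, which encodes the microtubule protein tau, measured 0.78, 0.801, 1.41 and 0.506 CPM in tumour cells from liver and 2.07, 1.7, 1.37 and 1.94 CPM in those from peritoneum. Its stromal levels were 0.828, 1.71, 1.14 and 0.835 CPM in liver and 0.774, 0.265, 0.644 and 0.367 CPM in peritoneum, so only the stromal sites were separate. The log2 difference was -2.20 ± 0.55 (adjusted p = 0.0164), and leaving out mouse 2 or mouse 4 ended the call (adjusted p = 0.11 and 0.114). Gipc3, a PDZ domain protein, measured 0.958, 0.635, 1.15 and 1.11 CPM against 2.47, 1.29, 2.9 and 1.21 CPM in tumour cells, and 1.15, 2.48, 1.01 and 1.52 CPM against 0.739, 0.661, 0.419 and 0.441 CPM in stroma, liver first. Its sites were separate in both compartments, the log2 difference was -2.47 ± 0.57 (adjusted p = 0.0116), and the call ended without mouse 3 or mouse 4 (adjusted p = 0.0551 and 0.051).

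Ifitm1, an interferon-induced membrane protein gene, measured 13.1, 15.2, 7.4 and 14.7 CPM in tumour cells from liver and 8.03, 60.2, 8.1 and 68.9 CPM in those from peritoneum. Its stromal levels were 187, 125, 221 and 154 CPM in liver and 53.1, 59.5, 67.6 and 89.9 CPM in peritoneum. The tumour cell difference rested on mice 2 and 4, and the call (log2 difference -2.74 ± 0.78, adjusted p = 0.0319) held under 14 of 28 alternatives. Among the alternatives that ended the call were those without mouse 2, 3 or 4 (adjusted p = 0.144, 0.0634 and 0.144). Others were those without the liver tumour cells of mouse 2, 3 or 4, the peritoneal tumour cells of mouse 2 or 4, the liver stroma of mouse 1 or 3, or the peritoneal stroma of mouse 1, 2 or 4.

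Adgrl4, an adhesion receptor of endothelial cells, measured 0.29, 0.359, 0.0884 and 0.221 CPM in tumour cells from liver and 3.34, 0.377, 0.401 and 0.365 CPM in those from peritoneum. Its stromal levels were 23.3, 64.3, 27.7 and 27.8 CPM in liver and 31.8, 14.3, 16.4 and 12.7 CPM in peritoneum. The tumour cell value of 3.34 CPM came from the peritoneal library of mouse 1, the one with the high fibroblast marker sum. The log2 difference of -3.05 ± 0.89 (adjusted p = 0.0342) became -1.58 without that library (adjusted p = 0.176), and the call held under 11 of 28 alternatives. It ended also with a block by mouse within compartment (adjusted p = 0.0569), with limma-voom (-2.08, adjusted p = 0.218), without mouse 2, 3 or 4, without the liver tumour cells of any 1 mouse, the liver stroma of mouse 2, 3 or 4 or the peritoneal stroma of any 1 mouse. The other opposite genes on this side were A930001C03Rik, Arhgap27os3, Cyp2d26, Fer1l5, Gm6225, Gsg1l, Majin, Oas1g and Plxna4os1.

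**Figure D4:**
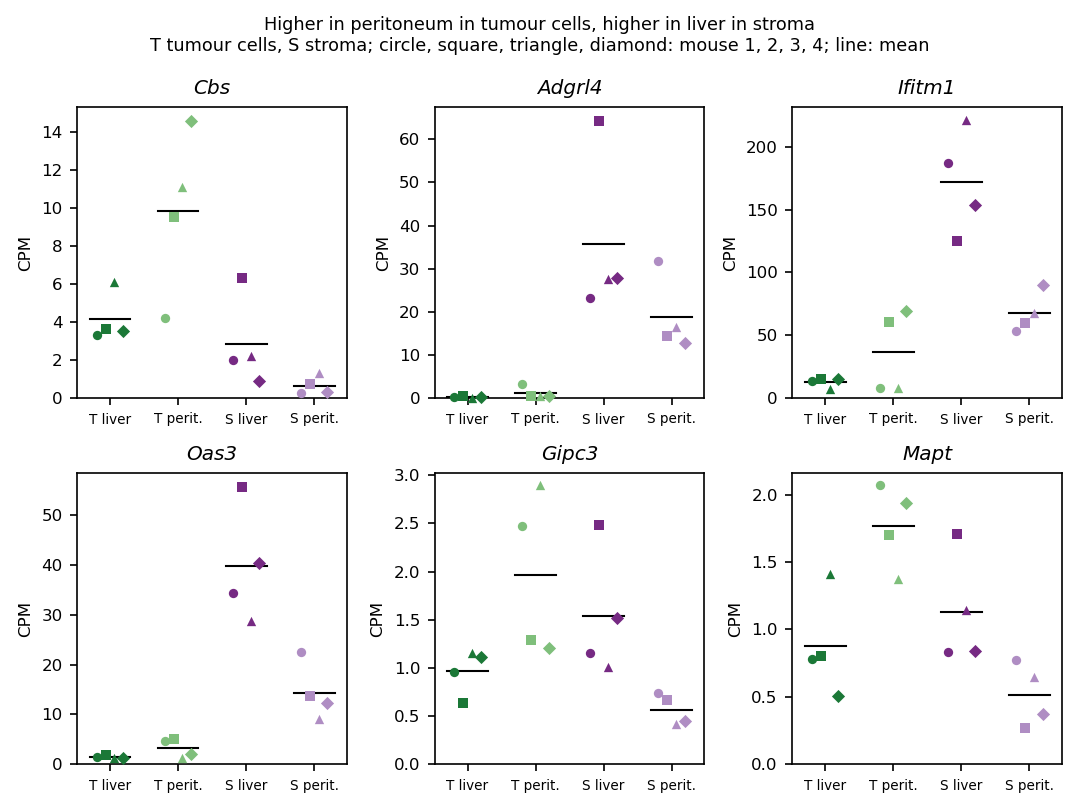
CPM of the 6 named genes higher in peritoneum in tumour cells and higher in liver in stroma, with 1 symbol per mouse and a line at the group mean. Oas3 stroma lies between 28.8 and 55.8 CPM in liver and between 9.05 and 22.5 CPM in peritoneum, and the single Adgrl4 tumour cell value of 3.34 CPM belongs to mouse 1.

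Several interferon-stimulated genes moved the same way as Oas3. Of 32 tested, 6 were called, all lower in tumour cells, against 2.61% of all genes, and 1 of 32 had a log2 difference above 0 (median -1.05, against -0.116 over all genes tested). The median site difference was -0.492 in tumour cells and 0.603 in stroma. Leukocyte lists leaned likewise, with a median log2 difference of -1.27 for leukocyte markers (site differences of -0.487 and 0.65) and -2.11 for neutrophil markers. It was -0.968 for MHC class I and -0.917 for MHC class II presentation genes. No leukocyte, neutrophil or MHC class II member was called, and 1 of 15 MHC class I genes was called lower, against 2.61% of all genes. Medians of other lists were -1.82 for endothelial, -0.969 for tumour cell epithelial and 0.229 for fibroblast markers. The part of leukocyte content was not tested. The called interferon-stimulated genes were the synthetases Oas2 (-2.90 ± 0.72, adjusted p = 0.0156), Oas1a (-2.61 ± 0.82, adjusted p = 0.0482) and Oas3, with 3 others. These were the guanylate-binding protein Gbp2 (-2.05 ± 0.33, adjusted p = 0.00138), the antiviral GTPase Mx1 (-1.68 ± 0.46, adjusted p = 0.0257) and the transcription factor Irf7 (-1.38 ± 0.43, adjusted p = 0.0451).

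Gbp2 measured 1.2, 1.49, 1.0 and 2.21 CPM in tumour cells from liver and 4.76, 3.39, 0.821 and 3.1 CPM in those from peritoneum. Stromal Gbp2 was 179, 164, 90.9 and 202 CPM in liver and 94.3, 73.7, 40.9 and 91.0 CPM in peritoneum. In stroma the liver level was higher in each mouse, and in tumour cells the peritoneal level was higher in mice 1, 2 and 4 and lower in mouse 3.

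Oas2 followed it, with 0.379, 0.387, 0.0295 and 0.506 CPM against 2.47, 2.07, 0.115 and 0.767 CPM in tumour cells and 58.4, 93.3, 52.1 and 62.2 CPM against 51.0, 32.8, 24.3 and 31.2 CPM in stroma, liver first. These levels were far lower in tumour cells than in stroma, and leukocyte markers in tumour cells summed to 0.858% to 3.3% of those of the stroma in peritoneum and 1.18% to 1.58% in liver. The part of carried-over stromal RNA was not tested. The number of called interferon-stimulated genes was 2 without mouse 2 and 2 without mouse 4. It was 3 without the liver tumour cells of mouse 2 or 4, the liver stroma of mouse 2 or 3, or the peritoneal stroma of mouse 2, 3 or 4, 4 without the peritoneal tumour cells of mouse 1, and 10 without those of mouse 3. With RLE scaling or TMM within compartments it was 4. All 6 had a mean in tumour cells below 0.5 of that in stroma.

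The interferon-stimulated response element, written here as GAAANNGAAA and searched on both strands, was in 3 of the 4 called interferon-stimulated genes with a listed promoter, against 3.45% of 26994 genes with one. Uncalled members of the list were not counted, so this share describes interferon-stimulated genes and does not bear on the calls. The 250 bases before the start of Oas3 (chr5:120777660-120777909, minus strand, GRCm38.p6, RefSeq) and of Oas1a (chr5:120907526-120907775, minus strand) are shown with it in capitals, and in Oas1a the capitals cover 2 overlapping matches.
Oas3: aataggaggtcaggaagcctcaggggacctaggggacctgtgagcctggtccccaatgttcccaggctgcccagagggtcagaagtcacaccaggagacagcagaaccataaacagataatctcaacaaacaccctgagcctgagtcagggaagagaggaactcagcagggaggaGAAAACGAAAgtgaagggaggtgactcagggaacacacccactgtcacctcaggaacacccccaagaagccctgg
Oas1a: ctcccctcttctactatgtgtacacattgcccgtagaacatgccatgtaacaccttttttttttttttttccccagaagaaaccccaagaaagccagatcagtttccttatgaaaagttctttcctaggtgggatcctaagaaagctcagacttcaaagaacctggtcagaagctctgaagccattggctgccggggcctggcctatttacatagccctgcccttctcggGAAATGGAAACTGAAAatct
Among the opposite genes the element was in 2 of the 10 with a listed promoter on the peritoneal side of tumour cells and in 1 of the 29 on the liver side.

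Other called genes had site differences of opposite sign that did not reach the minimum size in both compartments. A further rule, chosen after values were seen, kept called genes with opposite signs and an adjusted p under 0.05 in each compartment at any size, and gave 87 genes (0.567%), 36 higher and 51 lower in tumour cells. Among the 87 were the 17 opposite genes that passed an adjusted p for each site contrast. The count of 87 was sensitive to the mice: it was 140 without mouse 1, 8 without mouse 2, 24 without mouse 3 and 12 without mouse 4. It also moved by over 1.5 times without the liver tumour cells of mouse 2, 3 or 4 (35, 39 and 33), the peritoneal tumour cells of mouse 2 or 4 (50 and 55), or the peritoneal stroma of mouse 2 or 3 (56 and 53).

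Enzymes that modify collagen and hyaluronan stood among the 36. Plod2, a lysyl hydroxylase of collagen, measured 228, 335, 310 and 270 CPM in tumour cells from liver and 182, 166, 132 and 151 CPM in those from peritoneum, against 95.4, 107, 79.0 and 76.9 CPM and 197, 234, 239 and 155 CPM in stroma. Has2, a hyaluronan synthase, measured 148, 148, 197 and 181 CPM and 88.3, 109, 68.6 and 90.8 CPM in tumour cells, and 23.6, 35.0, 32.6 and 32.8 CPM and 53.9, 118, 116 and 97.3 CPM in stroma, liver before peritoneum. Neither gene's sites overlapped in either compartment. The log2 difference was 2.06 ± 0.20 for Plod2 (adjusted p = 6.15e-05) and 2.53 ± 0.26 for Has2 (adjusted p = 0.000106), and P4ha2, a prolyl 4-hydroxylase, moved likewise (1.63, adjusted p = 0.000259).

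Plat, the tissue plasminogen activator, lay on the same side. It measured 393, 406, 430 and 394 CPM in tumour cells from liver and 254, 303, 244 and 298 CPM in those from peritoneum, and in stroma 158, 129, 156 and 126 CPM in liver and 286, 369, 274 and 300 CPM in peritoneum. Its sites were separate in both compartments (log2 difference 1.67 ± 0.16, adjusted p = 6.55e-05).

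Among the 51, Clu, the abundant secreted chaperone clusterin, measured 3890, 5060, 6350 and 4570 CPM in tumour cells from liver and 6550, 6130, 7240 and 6280 CPM in those from peritoneum, and 860, 1130, 1180 and 1050 CPM and 591, 510, 608 and 556 CPM in stroma. Each mouse had more Clu in its peritoneal tumour cells and less in its peritoneal stroma (log2 difference -1.31 ± 0.15, adjusted p = 0.000183). Its stromal levels moved with the epithelial marker sum, which was also higher in liver stroma, and the part of tumour cell RNA in them was not tested. Rin3, an exchange factor for Rab5, was higher in stroma than in tumour cells at both sites, with 43.7, 38.6, 44.3 and 48.5 CPM and 56.9, 64.8, 64.5 and 62.5 CPM in tumour cells and 222, 214, 244 and 248 CPM and 125, 138, 143 and 140 CPM in stroma. Its sites were separate in both compartments (log2 difference -1.27 ± 0.10, adjusted p = 1.29e-05). The interferon-related genes Gbp9 (-1.93 ± 0.25, adjusted p = 0.00041) and Uba7, the activating enzyme of Isg15 (-1.73 ± 0.24, adjusted p = 0.00056), were also among the 51.

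Most called genes were not opposite by the thresholds, and 601 of the 1022 passed them for a site difference in stroma alone. That class does not mean that tumour cells were level, since it also held Plod2, Has2 and Plat. At any size, the 2 site differences had opposite signs in 708 called genes, 381 higher and 327 lower in tumour cells. Scn7a, a sodium channel gene, measured 7.46, 6.02, 11.2 and 9.93 CPM in tumour cells from liver and 4.88, 7.02, 6.84 and 5.44 CPM in those from peritoneum, while stroma held 0.929, 0.906, 1.2 and 1.56 CPM in liver and 58.4, 61.1, 58.0 and 52.1 CPM in peritoneum. Tumour cells overlapped between sites and the stromal groups lay far apart (log2 difference 6.16 ± 0.28, adjusted p = 7e-07). Msx1, another homeobox gene, measured 5.48, 4.81, 5.63 and 5.88 CPM and 5.03, 2.37, 1.32 and 3.36 CPM in tumour cells, and 1.73, 1.31, 1.82 and 1.59 CPM and 12.3, 14.8, 20.5 and 11.4 CPM in stroma (4.10 ± 0.47, adjusted p = 0.00019).

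Clip4, a CAP-Gly domain protein, measured 4.99, 4.56, 3.62 and 3.8 CPM against 4.94, 6.32, 1.78 and 12.2 CPM in tumour cells and 0.853, 1.31, 0.586 and 0.987 CPM against 19.3, 23.6, 25.2 and 12.9 CPM in stroma (4.08 ± 0.64, adjusted p = 0.00126). Tnxb, the matrix glycoprotein tenascin X, was higher in the peritoneum in both compartments: 2.96, 1.8, 4.18 and 2.34 CPM against 25.2, 9.47, 7.3 and 4.31 CPM in tumour cells, and 3.14, 6.31, 12.4 and 3.61 CPM against 696, 630, 763 and 531 CPM in stroma. Its call (4.79 ± 0.66, adjusted p = 0.000562) thus reflected unequal steps in one direction, and its highest tumour cell value was again in the peritoneum of mouse 1.

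On the other side Gata4, a transcription factor of liver endothelium and mesenchyme, held 20.9, 43.6, 23 and 20.7 CPM in liver stroma and 0.703, 0.705, 0.451 and 1.32 CPM in peritoneal stroma. Tumour cells held 7.51, 9.28, 12.2 and 12 CPM in liver and 12.3, 7.48, 10.1 and 6.65 CPM in peritoneum, and these overlapped. Its log2 difference was -4.92 ± 0.51 (adjusted p = 9.41e-05).

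Gc, the vitamin D-binding protein made by hepatocytes, measured 83, 130, 167 and 101 CPM in tumour cells from liver and 134, 187, 278 and 174 CPM in those from peritoneum. Its stromal levels were 44.6, 53.9, 45.2 and 30.0 CPM in liver and 7.42, 3.31, 17.6 and 6.87 CPM in peritoneum, and the log2 difference was -3.11 ± 0.42 (adjusted p = 0.000541). Every mouse had more Gc in its peritoneal than in its liver tumour cells and less in its peritoneal stroma, and the tumour cell step did not pass its test (-0.69, adjusted p = 0.179). Hepatocyte and epithelial marker sums were both higher in liver than in peritoneal stroma, and their part in stromal Gc was not tested.

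Itih2, a heavy chain of the inter-alpha-trypsin inhibitor, measured 6.7, 9.56, 4.33 and 3.11 CPM in liver stroma and 1.02, 0.353, 0.354 and 0.624 CPM in peritoneal stroma, and 6.55, 6.35, 7.43 and 5.47 CPM against 3.4, 6.4, 1.68 and 9.28 CPM in tumour cells (-2.83 ± 0.70, adjusted p = 0.0162). Its call ended without mouse 2 or 4 or the peritoneal stroma of mouse 2 (adjusted p = 0.138, 0.0521 and 0.052). Trim71, a regulator of early development known as Lin41, instead moved in tumour cells, with 1.74, 1.52, 1.77 and 1.17 CPM in liver and 4.11, 3.44, 4.41 and 9.64 CPM in peritoneum. In stroma it measured 0.176, 0.94, 0.423 and 0.304 CPM and 0.176, 0.353, 0.29 and 0.22 CPM, and the log2 difference of -2.51 ± 0.68 (adjusted p = 0.0253) held under 17 of 28 alternatives. Among the 11 alternatives that ended the call were those without mouse 2, 3 or 4, the liver tumour cells of mouse 2 or 4, the liver stroma of mouse 2, or the peritoneal stroma of any 1 mouse.

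Many matrix genes were called as well. Of 31 other matrix and matricellular genes tested, 12 were called higher in tumour cells and 1 lower, beside 4.06% and 2.61% of all genes. The median site difference of the list was -2.52 in tumour cells and -2.95 in stroma, so the list lay on the peritoneal side in both fractions. Ccn1, a matricellular protein, measured 113, 112, 89.0 and 114 CPM and 86.3, 82.3, 90.4 and 51.3 CPM in tumour cells, and 52.2, 78.4, 44.7 and 46.2 CPM and 313, 533, 459 and 395 CPM in stroma, liver before peritoneum (3.43 ± 0.27, adjusted p = 1.97e-05). Its stromal sites were separate and its tumour cell sites overlapped, and the fibulin gene Fbln1 had the same form (3.42 ± 0.28, adjusted p = 2.53e-05). The remaining called members higher in tumour cells were Spon2, Has2, Fbln2, Matn2, Loxl2, Ccn2, Vcan, Sparc, Fn1 and Thbs1, and Spon1 was lower. The list's count of higher genes was 17 without the peritoneal tumour cells of mouse 1 and 19 without mouse 1 altogether. Among genes with a tumour cell mean of at least 0.5 of the stromal mean it was 6 of 7 tested.

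Of 30 collagen genes, 3 were called, all higher in tumour cells (Col6a1, Col6a3 and Col11a1), against 4.06% of all genes. This count became 5 with TMM within compartments or with the 2 CPM filter, and none of the 3 had a tumour cell mean of at least 0.5 of the stromal mean. It became 8 without the peritoneal tumour cells of mouse 1, 12 without mouse 1, 5 without its peritoneal stroma, and 1 without any one of mice 2, 3 and 4. Matrix metalloproteinases and their inhibitors gave 5 higher and 1 lower of 25, against 4.06% and 2.61% of all genes, with 2 called, both higher, among the 7 with that tumour cell share, and 9 higher without the peritoneal tumour cells of mouse 1 or 11 without mouse 1, and 8 without its peritoneal stroma. The fibroblast marker sum rose from liver to peritoneal stroma as well, and its part was not tested. That list shares Col1a1, Col1a2, Col3a1 and Col14a1 with the collagens and Dcn, Lum and Postn with the other matrix genes. The joint rise thus follows in part from shared members.

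Signalling ligands followed at lower counts. Of 36 TGF-beta, BMP and Wnt ligands and modulators, 8 were called, all higher in tumour cells, against 4.06% of all genes. They were the ligand genes Wnt9a (3.29 ± 0.55, adjusted p = 0.0018), Wnt2 and Wnt11, the activin antagonist Fst (2.71 ± 0.36, adjusted p = 0.000454), the procollagen protease Bmp1, the latent TGF-beta binding proteins Ltbp1 and Ltbp2, and Tgfb2. Fst in stroma rose from 9.66, 12.4, 7.55 and 9.23 CPM in liver to 40.3, 55.0, 62.5 and 59.5 CPM in peritoneum, while tumour cells held 11.7, 15.5, 14.3 and 11.9 CPM and 14.6, 9.74, 6.51 and 16.1 CPM. The count was 5 without mouse 2, 4 without mouse 3 and 5 without mouse 4. Among genes with a tumour cell mean of at least 0.5 of the stromal mean it was 2 of 12 tested. Of 22 Egf and Igf family genes, 6 were called higher (4.06% of all genes), among them the receptor Egfr (1.55 ± 0.17, adjusted p = 0.000149) and its ligand Ereg (1.62 ± 0.36, adjusted p = 0.01), and 3 lower (2.61% of all genes), among them the ligand Btc (-1.07 ± 0.22, adjusted p = 0.00555) and the receptor Erbb3 (-1.53 ± 0.38, adjusted p = 0.0172). Without mouse 2 this list gave 2 called genes, both higher, without mouse 3 it gave 1 higher and 3 lower, and without mouse 4 or the peritoneal stroma of mouse 3 it gave 4 higher and 1 lower.

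Of 31 complement and coagulation genes, 4 were called, all higher in tumour cells (4.06% of all genes) and among them C2, Procr and Plat, with 2 without mouse 2, 7 without mouse 1 and 8 without the peritoneal tumour cells of mouse 1. Markers of other cell types were called in both directions, against 4.06% higher and 2.61% lower over all genes. Called lower in tumour cells were 3 of 12 Kupffer cell markers and 3 of 12 hepatocyte markers, the latter from 1 to 4 when a mouse or library was left out, with 1 hepatocyte marker, Ahsg, called higher. Mast cell markers gave 2 of 7 higher, peritoneal macrophage markers 2 higher and 1 lower of 12, monocyte markers 1 higher and 2 lower of 7, and sinusoidal endothelial markers 1 higher and 2 lower of 11.

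**Figure D5:**
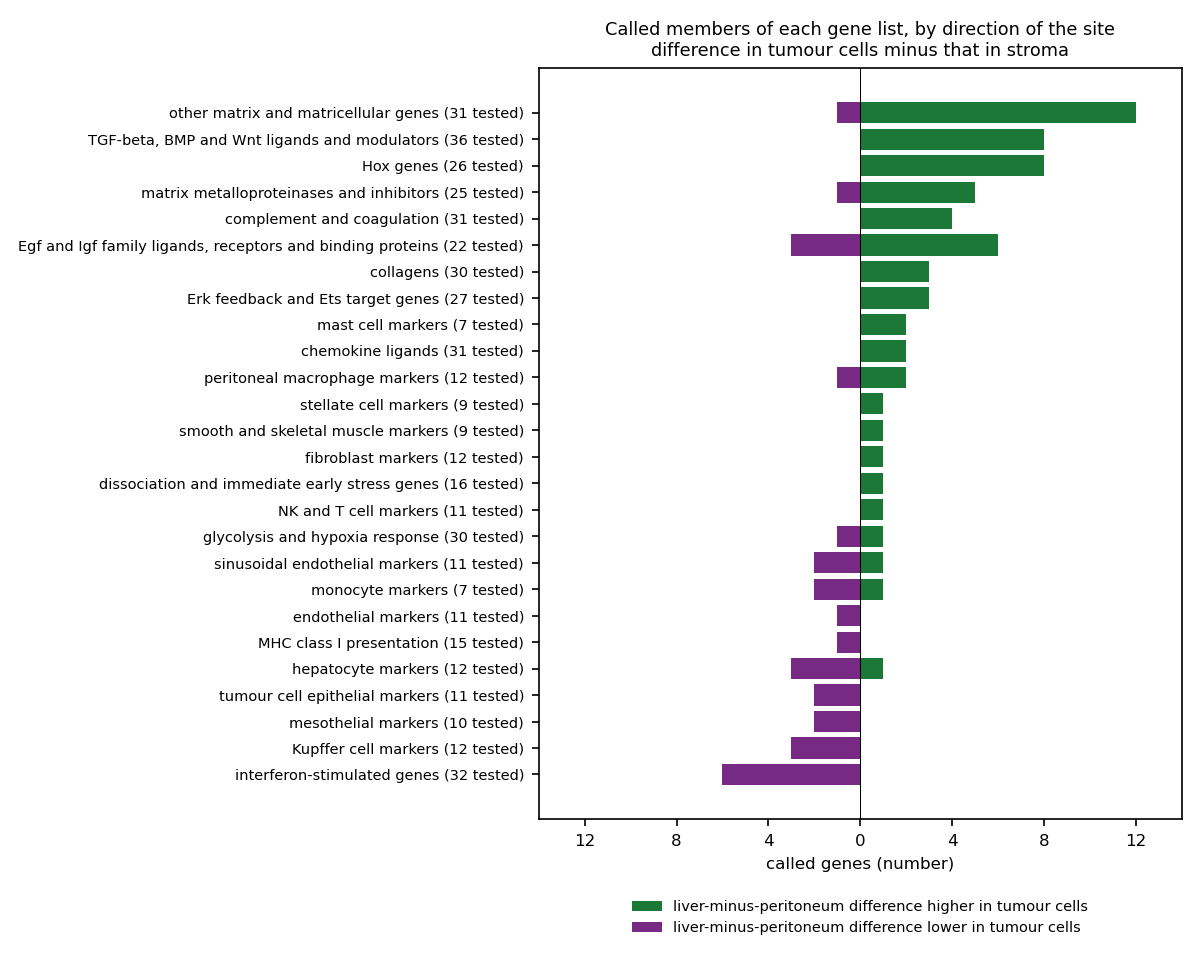
Number of called genes in each gene list with at least 1 call, to the right where the site difference was higher in tumour cells and to the left where it was lower. Matrix genes extend to 12 on the right and interferon-stimulated genes to 6 on the left.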

How the data were processed

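RNA had been prepared from sorted cells, made into libraries with the Universal Plus mRNAseq kit and sequenced on a HiSeq 2500. Per the paper's methods reads were aligned to mm9 with TopHat2, while the submitters' processing notes name FastQC, Bowtie 0.12.2, mm8 and mm10 with no role. The counting program, strand setting and annotation are not given in the sources used here. The authors deposited whole-number read counts per gene in one table, of which 16 of 25 columns were used. No columns held identical values.

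The 16 libraries were fitted with edgeR 4.0.16 in R 4.3.3 (TMM, filterByExpr at a minimum count of 10, design of group plus mouse, 9 residual degrees of freedom, quasi-likelihood test, Benjamini-Hochberg over 15331 genes). Same-numbered libraries came from the same mouse, per the labels. Their deviations from group means had a mean correlation of 0.11 over 24 pairs, from -0.161 to 0.349, with 11 pairs over 0.1, against -0.0354 between mice. A lane code in the sample descriptions put mouse 1 on lane 1, mouse 3 on lane 2 and mouse 4 on lane 3. Mouse 2 was on lane 1 for liver and lane 2 for peritoneum, where site and lane cannot be told apart. The fit was tested on simulated data.

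Named genes were, per direction, up to 8 opposite genes with the largest value of the smaller site difference (at least 1 CPM at the higher site of each compartment) and the 4 other called genes with the largest difference (at least 5 CPM in tumour cells), plus list members called. The members and lists were chosen with earlier results of these data known. Gene spans were read from NCBIM37 and promoters from RefSeq on GRCm38.p6. Alternatives used DESeq2 1.42.0, limma 3.58.1, other scalings, filters, thresholds and blocks, and left out each mouse or library. The level given for 3 counts covers counting error only, and errors after ± are standard errors of the fit.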

Additional observations from a re-analysis of the deposited data

Results flagged for a closer look

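In 7 of the 88 groups of 4 libraries examined for the named genes, 1 library lay far from the other 3 by Dixon's test. About 1 group in 20 does so by chance. These were Hoxb7 in tumour cells from the liver of mouse 2 (0.746 CPM), Gfra1 in tumour cells from the peritoneum of mouse 1 (2.87 CPM), Cbs in tumour cells from the liver of mouse 3 (6.1 CPM), Adgrl4 in tumour cells from the peritoneum of mouse 1 (3.34 CPM) and in liver stroma of mouse 2 (64.3 CPM), Gata4 in liver stroma of mouse 2 (43.6 CPM) and Trim71 in tumour cells from the peritoneum of mouse 4 (9.64 CPM).

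The 22 named genes were taken from those called by the interaction test, so that each differed between compartments follows from the choice. On the log2 scale it was higher in tumour cells by 4.83 for Pitx1, 4.58 for Hoxb7, 4.13 for Hoxb6, 4.74 for Hoxb8, 5.77 for Gfra1, 3.75 for Osbp2, 3.4 for Lpar1, 3.42 for Tnfsf15, 6.16 for Scn7a, 4.79 for Tnxb, 4.1 for Msx1 and 4.08 for Clip4. The difference of tumour cells minus stroma was -2.74 for Ifitm1, -3.38 for Cbs, -2.2 for Mapt, -3.05 for Adgrl4, -2.54 for Oas3, -2.47 for Gipc3, -4.92 for Gata4, -3.11 for Gc, -2.83 for Itih2 and -2.51 for Trim71.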

How the results depend on the processing

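The count of genes whose site difference depended on the compartment was 1022. It was 591 of 10855 tested when only genes with a tumour cell mean of at least 0.5 of the stromal mean were kept. At an unadjusted p it was 1615, and with no minimum difference 2645. Leaving out single mice or libraries gave 588 to 1121. Without the replicate block by mouse it was 990, of which 938 were shared, and the fit with DESeq2 gave 1309. The opposite genes (55) numbered 30 with the 2 CPM filter, 24 with the tumour cell share, 17 with an adjusted p for each site contrast, and 33 to 78 when mice or libraries were left out. Without the replicate block 55 were found, 48 of them shared. The genes with opposite signs and an adjusted p in each compartment (87) numbered 179 with DESeq2, 71 without the replicate block and 8 to 140 when mice or libraries were left out, an alternative chosen after seeing the data. The cause of these shifts was not tested. Fewer samples were fitted where a mouse was left out. Of 614 pairs of a named gene and an alternative, 563 kept the call, 51 lost it and 0 reversed, and the fit without the block kept the call of each named gene. A replicate block by mouse within compartment ended the call of Adgrl4 (-2.85, adjusted p = 0.0569). The median difference over all genes was -0.0265 with TMM within compartments and -0.091 with RLE scaling, against -0.116. Depth limited genes under 1 CPM, where 3 counts were up to 0.132 CPM.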
